A study of Homo sapiens with 12 samples.

Results

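Mitochondrial ribosomal proteins are the nuclear-encoded proteins of the ribosome that works inside mitochondria. They were taken as every gene whose symbol begins with MRPL or MRPS and a number, and 75 of the 18132 genes on the array met that rule. Of these, 48 carried an MRPL symbol, given to proteins of the large subunit, and 27 an MRPS symbol, given to proteins of the small subunit. Each gene was represented by 1 probe set, the one with the highest mean over the 12 arrays among those annotated to exactly 1 symbol. All 75 passed the filter on dim genes. The symbols MRPL23, MRPL53, MRPS24 and MRPS31P5 lay on probe sets annotated to several genes and were not measured. MRPL20-AS1 is a long non-coding RNA that meets the rule by its name, so 74 of the genes code for proteins. In structures of the human mitochondrial ribosome the products of MRPS18A and MRPS30 sit in the large subunit despite their symbols.

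THP-1 is a human monocytic leukaemia cell line, and its RNA was measured on 12 PrimeView arrays, 3 in each of 4 groups. Cells were differentiated into macrophages with 100 ng/ml of the phorbol ester PMA for 48 h. In the first experiment they were then kept at 37 °C or at a fever-like 40 °C. In the second they were differentiated at 40 °C and nucleofected together with a GFP plasmid, and cells with GFP were sorted 24 h later; the groups are a control, titled WT, and a group labelled siThermomir, called the inhibitor group here. The protocol lists hairpin inhibitors of several microRNAs (miR-142, miR-143, ThermoMIR-1) besides a control hairpin of non-human sequence, and no title says which of these the arrays had. Cells at 40 °C were harvested after 2, 8 and 24 h, and the labels do not give the time of these arrays. No label says that replicates were separate cultures, so the p-values measure the spread between these samples, which may be technical. The questions were how the genes differed between 40 °C and 37 °C and between inhibitor and control.

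The mitochondrial ribosome makes the core subunits of the respiratory chain and ATP synthase that mitochondrial DNA encodes. All of its proteins are made in the cytosol and imported, so its assembly joins 2 genomes. It descends from a bacterial ribosome: part of its proteins have bacterial relatives, and the others were added in the mitochondrial lineage. Macrophages are known to change their use of the respiratory chain when they are activated.

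Monocyte and macrophage markers were well measured in all groups, with a mean log2 level over 7 markers of 9.62 to 9.87 in the first experiment, 9.76 to 9.81 in the control group and 8.89 to 9.01 in the inhibitor group. Erythroid markers, 3 of them measured, averaged 4.27 to 4.79 per array, and the 5 markers of fibroblasts and epithelium 4.18 to 4.62, both about the filter's level of 4.48; lymphocyte markers, 5 measured, averaged 4.97 to 5.60. Of the 7 monocyte and macrophage markers, 5 rose and 1 fell at 40 °C, and 1 rose and 5 fell with the inhibitor. All 8 cell division genes fell with the inhibitor, by a median of 1.23 on the log2 scale, and 1 rose and 4 fell at 40 °C. Poly-A spike probe sets, which report RNA added to each sample, read 7.66 to 7.80 in the first experiment, 6.81 to 7.47 in the control group and 5.82 ± 0.27 (mean, SD, n = 3) in the inhibitor group. The 18S rRNA probe sets read 12.59 to 12.85 in the control and 9.67 to 10.39 in the inhibitor group. The 3′ minus 5′ difference of GAPDH, a sign of RNA integrity, was 0.99 to 1.06 in the control and 0.62 to 0.78 in the inhibitor group. That of ACTB went the other way, at 2.36 to 2.53 in the control and 2.56 to 2.88 in the inhibitor group. The part of these differences in the results on inhibitor and control was not tested.

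At 40 °C, 25 of the 75 mitochondrial ribosomal protein genes rose and 10 fell, and 40 were not called. MRPL34, MRPS25 and MRPS27 rose most and MRPS31, MRPL47 and MRPL15 fell most. A gene was called when its adjusted p in limma was under 0.05. Of all 13909 genes tested, 39.3% were called, 21.6% higher and 17.7% lower, against 33.3% higher and 13.3% lower among these 75. Genes with a mean level in the range of the members, log2 7.27 to 12.11, gave 29.2% higher and 24.3% lower. The values at the 2 temperatures did not overlap for 50 members, or 66.7%, against 49.5% of all genes and 66.7% of the genes in that range. The members' share of rises was above both backgrounds and their share of falls below both, which is a description with no test. Their median log2 difference was 0.07, against 0.01 over all genes tested, and 49 of the 75 lay above 0. With the mean signal of the spikes on each array as a covariate in limma, 9 members rose and 7 fell (12% and 9.33%). All genes gave 8.77% and 10.4%, so both shares were then nearer to the background. The spikes read 7.66 to 7.73 at 37 °C and 7.73 to 7.80 at 40 °C, so the covariate lies close to the grouping. The members' median standard error was 0.08 in this fit, against 0.05, and the median size of their differences was 0.14 in both. The part of the spikes in the members' rises was not tested. In bulk RNA, fewer cells of a type and less RNA per cell cannot be told apart.

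**Figure D1:**
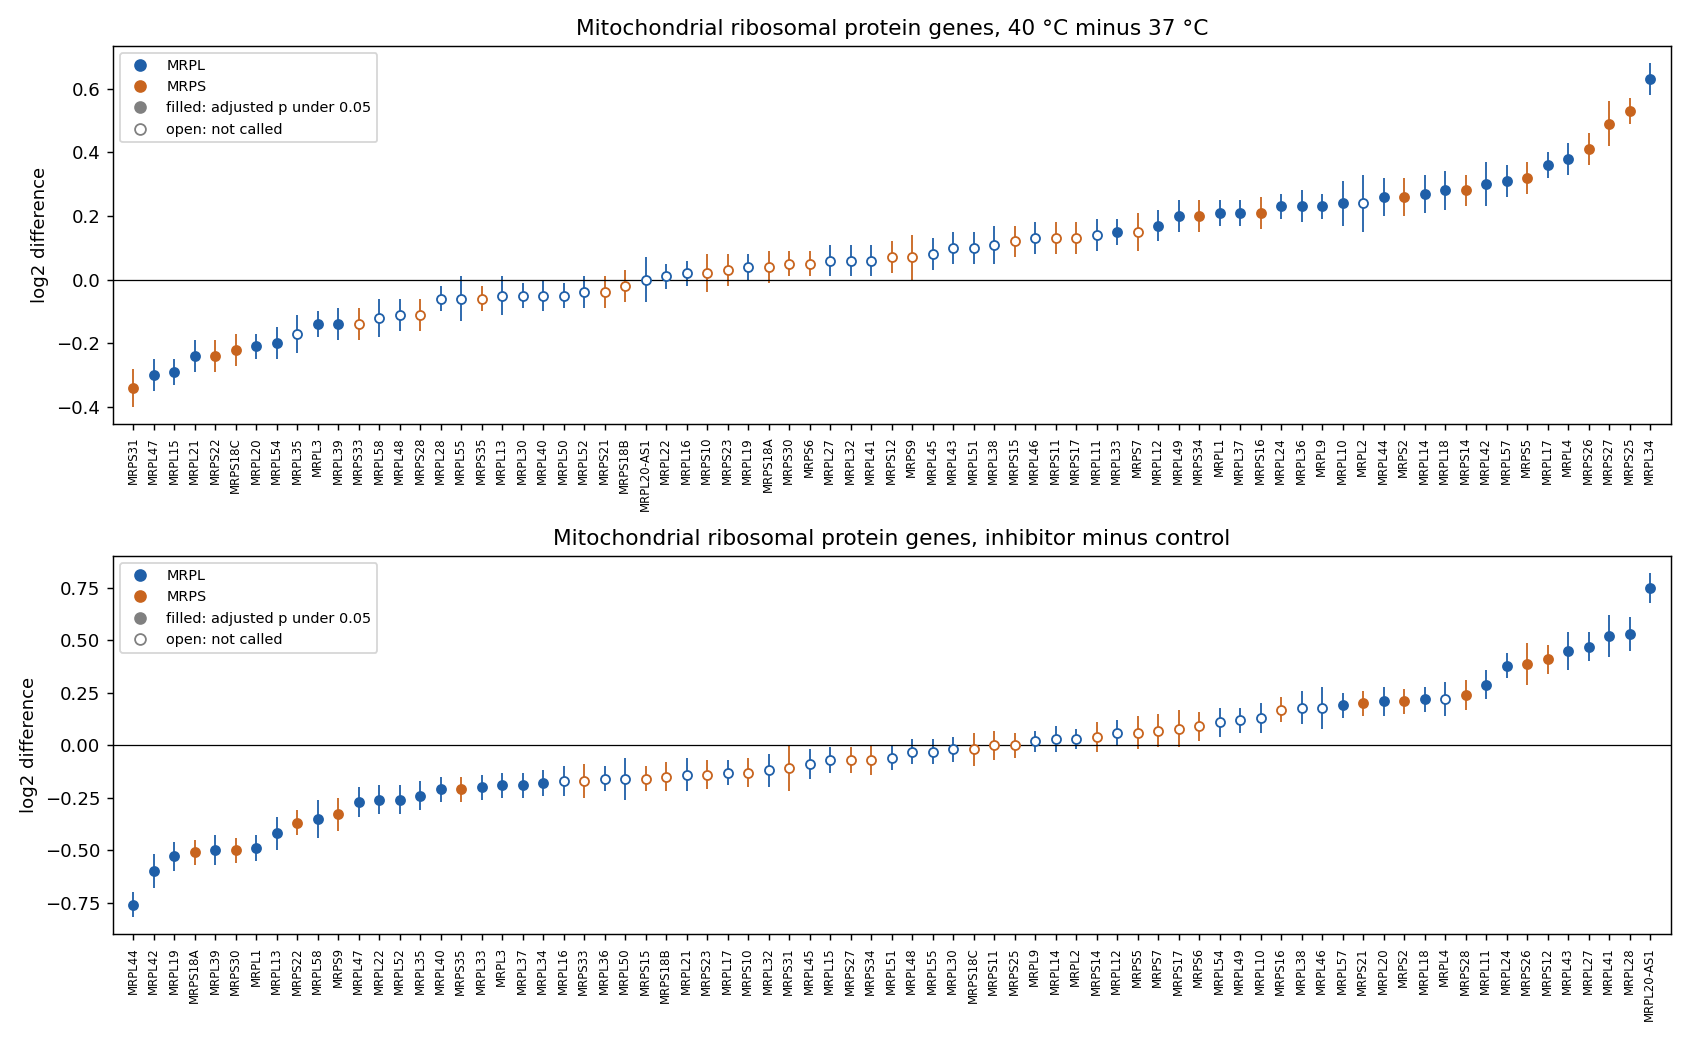
Log2 difference of each gene (y axis) with its standard error, ordered by size along the x axis, for 40 °C minus 37 °C (top) and inhibitor minus control (bottom). Blue points are MRPL symbols, including the non-coding MRPL20-AS1, orange points MRPS symbols; filled points were called, 35 genes at the top and 36 at the bottom.

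MRPL34, a large subunit protein with a bacterial relative, read 10.70, 10.75 and 10.69 at 37 °C and 11.38, 11.36 and 11.28 at 40 °C. The groups did not overlap, and every array at 40 °C stood well above every array at 37 °C. The log2 difference was 0.63 (SE 0.05), or 1.54-fold, with an adjusted p of 5.12e-05 in limma, and no member changed more at 40 °C. MRPL4 belongs to the proteins that line the tunnel through which the new chain leaves bacterial ribosomes. It read 7.40, 7.51 and 7.43 at 37 °C and 7.85, 7.86 and 7.77 at 40 °C, a rise of 0.38 (SE 0.05). Its 2 other probe sets above the filter were at 0.08 and 0.02 and not called, and averaging its probe sets gave 0.14. MRPL17 rose by 0.36 (SE 0.04), in both of its probe sets. MRPL57 and MRPL42, which have no bacterial relative, rose by 0.31 (SE 0.05) and 0.30 (SE 0.07). The third probe set of MRPL42 was called lower, at -0.30, and averaged over all its probe sets MRPL42 stood at 0.09 and was not called.

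Among small subunit genes, MRPS25 read 8.74, 8.75 and 8.74 at 37 °C and 9.32, 9.27 and 9.24 at 40 °C. The 37 °C arrays lay within 0.01 of each other on the log2 scale, and the rise was 0.53 (SE 0.04, adjusted p 7.03e-05). Its 4 other probe sets did not all move with it: their differences were 0.06, 0.30, -0.44 and -0.32, and the mean of the gene's probe sets gave 0.03 with an adjusted p of 0.725. MRPS27, a pentatricopeptide repeat protein, is the more uniform case. It read 8.84, 8.85 and 8.69 at 37 °C and 9.40, 9.23 and 9.22 at 40 °C, and all 4 of its probe sets were called higher, by 0.49, 0.43, 0.57 and 0.42. MRPS26 rose by 0.41 (SE 0.05), MRPS5 by 0.32 (SE 0.05) and MRPS14 by 0.28 (SE 0.05), or 0.18 for MRPS14 averaged over probe sets. MRPS5 is the relative of a bacterial protein at the entry of the mRNA channel, and all 3 of its probe sets were called higher.

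Of the genes that fell at 40 °C, MRPS31 changed most. It read 8.19, 8.28 and 8.11 at 37 °C and 7.81, 7.91 and 7.83 at 40 °C, with no overlap, a fall of 0.34 on the log2 scale (SE 0.06, adjusted p 0.00211). Its other probe set lay below the filter, and the mean of both gave -0.06. MRPL47, the relative of a bacterial protein at the tunnel exit, read 10.51, 10.60 and 10.47 at 37 °C and 10.26, 10.22 and 10.21 at 40 °C. It fell by 0.30 (SE 0.05), and it has 1 probe set. MRPL15 fell by 0.29 (SE 0.04), MRPL21 by 0.24 (SE 0.05), MRPL20 by 0.21 (SE 0.04) and MRPL54 by 0.20 (SE 0.05). With the mean over probe sets, MRPL15 and MRPL20 were both at -0.07 and not called. MRPS22, in which inherited mutations impair mitochondrial translation, fell by 0.24 (SE 0.05), in both of its probe sets. MRPS18C fell by 0.22 (SE 0.05).

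Large and small subunit genes had like shares of calls at 40 °C. Of 48 MRPL genes, 17 rose and 7 fell; of 27 MRPS genes, 8 rose and 3 fell, and both medians were 0.07. The mean over the MRPL genes was 9.76 to 9.82 at 37 °C and 9.83 to 9.88 at 40 °C, and that over the MRPS genes 9.64 to 9.70 and 9.72 to 9.78. Neither pair of ranges overlapped. The difference of the MRPL and MRPS means was 0.12 to 0.13 at 37 °C and 0.10 to 0.12 at 40 °C, so the balance between the subunits moved by no more than 0.03 from any array to another.

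**Figure D2:**
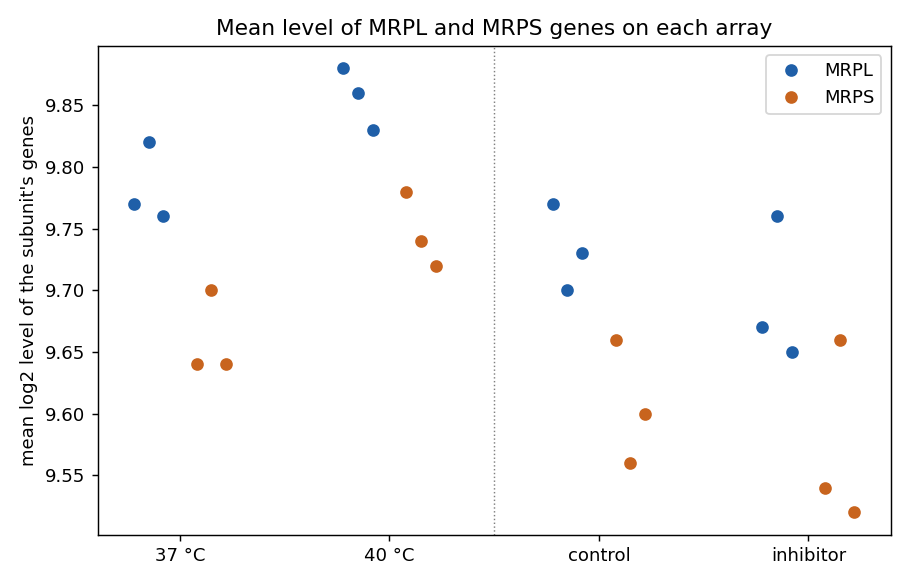
Mean log2 level over the 48 MRPL genes (blue) and the 27 MRPS genes (orange) on each of the 12 arrays, by group. Both means lie higher at 40 °C than at 37 °C, while control and inhibitor overlap.

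The promoters of these genes are short of TATA boxes and are known targets of NRF1, of the ETS factor GABP and of YY1. RefSeq windows from 250 bases before to 50 bases after the start, on GRCh38.p14, were at hand for 68 of the 75 genes, 11 of them with several windows. The ETS core CCGGAAG was found on either strand in 30 of the 68 genes (44.1%), against 19.9% of the 11238 genes tested that have a window. The YY1 letters AAGATGGC were in 20 (29.4%, against 5.74%) and the NRF1 core CGCATGCG in 3 (4.41%, against 3.92%). In the members' level range the ETS letters were in 23.2% to 26.1% of tested genes, by call at 40 °C. They were also in 22 of 55 cytosolic ribosomal protein genes not called at 40 °C (40%), in 1 of 4 that fell and in 0 of 1 that rose. By windows, the ETS letters were in 39.3% of the members' 84 and in 10.3% of all 35116; those of YY1 were in 26.2% and 2.89%, and those of NRF1 in 3.57% and 2.02%. The ETS and YY1 letters can overlap by their AAG, and 8 members held both, but in none of the 8 did matches share a base. A match describes the letters in the window and is not a measured binding site.

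The ETS letters were spread unevenly over the members' responses to 40 °C. They were in 7 of the 8 members with a window that fell (87.5%), in 18 of the 36 that were not called (50%) and in 5 of the 24 that rose (20.8%). Over all genes tested the shares were nearly level, at 24.1%, 18% and 21.3%. The 30 members with the letters had a median log2 difference of -0.02, with 14 above and 16 below 0; the 38 without had a median of 0.16, with 33 above and 5 below 0. All genes tested with and without the letters had medians of 0.01 and 0.02. On the arrays, the mean over the 30 members with the letters was 9.90, 9.95 and 9.90 at 37 °C and 9.92, 9.90 and 9.88 at 40 °C, and the groups overlapped. That over the 38 without was 9.61, 9.66 and 9.62 at 37 °C and 9.83, 9.82 and 9.78 at 40 °C, with no overlap. The pattern was noticed in these data, among splits of the ETS, YY1 and NRF1 letters in both comparisons, and is a description with no test. The YY1 letters were uneven too. At 40 °C they were in 25% of members that fell, 38.9% not called and 16.7% that rose. With the inhibitor these shares were 31.6%, 34.3% and 14.3%. Over all genes tested the YY1 shares were 5.5% to 6.57% at 40 °C and 4.82% to 7.67% with the inhibitor. Genes with 1 window alone gave 5 of 6 that fell, 16 of 34 not called and 4 of 17 that rose. GABPA, the DNA-binding subunit of GABP, fell by 0.22 at 40 °C (SE 0.06, adjusted p 0.0198), and its other probe set was at -0.06 and not called. With the inhibitor GABPA fell by 0.21 (SE 0.07), and its other probe set was at -0.71 (adjusted p 0.00105 in limma over every probe set). Members with and without the letters both had a median of -0.05 with the inhibitor. A link between GABPA and the pattern was not tested.

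**Figure D3:**
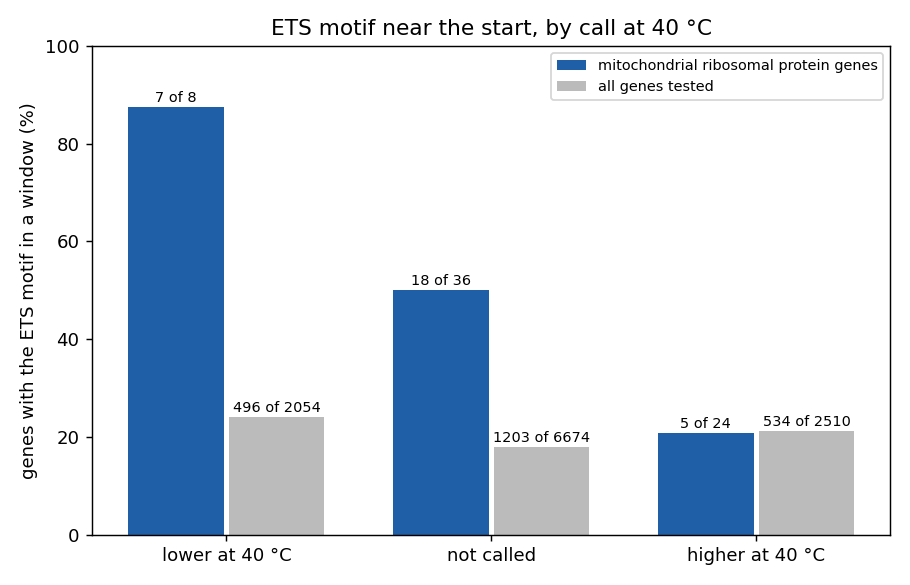
Share of genes with the ETS letters CCGGAAG in a promoter window (y axis, percent) among genes that were lower, not called or higher at 40 °C, for mitochondrial ribosomal protein genes (blue) and all genes tested (grey). The blue bars step down from 87.5% to 50% and 20.8%, and the grey bars stay between 18% and 24.1%.

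To show what these letters look like in place, the stretch around 1 match follows for each of the 7 members that fell, read on the strand that carries the match, with the ETS letters in capitals. Coordinates are on GRCh38.p14.
MRPL20, chr1:1407316-1407352, minus strand: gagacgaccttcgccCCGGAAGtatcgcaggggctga
MRPL3, chr3:131502982-131503018, minus strand: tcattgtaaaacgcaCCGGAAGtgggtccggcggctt
MRPL47, chr3:179604656-179604692, minus strand: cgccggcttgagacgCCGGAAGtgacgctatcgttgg
MRPL54, chr19:3762646-3762682, minus strand: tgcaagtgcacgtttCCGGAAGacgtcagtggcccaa
MRPS18C, chr4:83455821-83455857, plus strand: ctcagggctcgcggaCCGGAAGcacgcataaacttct
MRPS22, chr3:139343892-139343928, plus strand: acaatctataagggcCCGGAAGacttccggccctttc
MRPS31, chr13:40771201-40771237, minus strand: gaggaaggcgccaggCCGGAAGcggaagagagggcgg
In MRPL20, MRPL3, MRPL47 and MRPS31 the match lay 32 to 44 bases before the start on the gene's strand, and in MRPL54 it lay 21 bases before it on the opposite strand. The match of MRPS22 was 87 bases before the start and that of MRPS18C 222 bases before it. The 5 members that rose and carried the letters had these stretches.
MRPL18, chr6:159790426-159790462, minus strand: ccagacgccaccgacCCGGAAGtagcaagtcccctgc
MRPL33, chr2:27771696-27771732, plus strand: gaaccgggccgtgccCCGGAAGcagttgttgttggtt
MRPS16, chr10:73252618-73252654, plus strand: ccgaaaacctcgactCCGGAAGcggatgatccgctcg
MRPS26, chr20:3046000-3046036, minus strand: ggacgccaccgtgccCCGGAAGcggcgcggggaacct
MRPS34, chr16:1773184-1773220, plus strand: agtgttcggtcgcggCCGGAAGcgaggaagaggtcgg
MRPL20 had 2 matches in its window and MRPS22 and MRPS34 had 3, of which 1 is shown.

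Whole windows are shown for the first called member with 1 window in each direction, because they set a promoter with the letters beside one without. MRPS31, which fell at 40 °C, holds the ETS letters once, 32 bases before the start; MRPS25, which rose, holds none of the 3 motifs. Both are on the minus strand, 5′ to 3′ of the gene.
MRPS31, chr13:40771141-40771440, minus strand: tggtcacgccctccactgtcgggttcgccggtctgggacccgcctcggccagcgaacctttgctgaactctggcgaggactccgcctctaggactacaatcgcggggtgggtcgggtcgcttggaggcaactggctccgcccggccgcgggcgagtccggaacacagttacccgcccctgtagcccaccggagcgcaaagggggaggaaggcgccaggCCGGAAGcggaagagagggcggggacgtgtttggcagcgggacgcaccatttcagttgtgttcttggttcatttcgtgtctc
MRPS25, chr3:15065266-15065565, minus strand: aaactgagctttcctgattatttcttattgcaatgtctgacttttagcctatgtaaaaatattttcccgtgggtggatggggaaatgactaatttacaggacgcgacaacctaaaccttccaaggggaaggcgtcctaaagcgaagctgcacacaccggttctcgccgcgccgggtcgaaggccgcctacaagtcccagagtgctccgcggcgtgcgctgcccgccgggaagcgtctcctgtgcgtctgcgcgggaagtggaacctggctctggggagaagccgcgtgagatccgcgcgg
That MRPS25 lacks the letters says only that they are not in this window.

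With the inhibitor 15 of the 75 genes rose, 21 fell and 39 were not called. Which direction held more genes turned with some of the processing. Quantile normalization gave 22 higher and 18 lower (4169 and 2685 of all genes), and the mean of probe sets 18 and 17 (3111 and 2758). Every probe set counted on its own gave 35 and 31 (6756 and 6965). More members fell than rose with a stricter filter (17 and 23), all 12 arrays in 1 fit (18 and 27), array weights (19 and 31) and centring (11 and 16). The same held with no filter (13 and 17), the replicate block (8 and 10) and another eBayes setting (17 and 26). MRPL44, MRPL42 and MRPL19 fell most, and the non-coding MRPL20-AS1, MRPL28 and MRPL41 rose most. Of all genes tested, 45.2% were called, 25.6% higher and 19.6% lower, against 20% higher and 28% lower among the members; genes in the members' level range gave 32.8% and 26.9%. The groups did not overlap for 47 members (62.7%), against 54.1% of all genes and 70.4% of genes in that range. The median log2 difference was -0.06, against 0.09 over all genes tested and 0.04 in that range. A fit in limma with each array's mean spike signal as covariate, which lies apart in the 2 groups, called 0 members (7 at an unadjusted p under 0.05) and 273 of all genes, and the members' median standard error was 0.19 in it, against 0.07. Leaving out control replicate 1 gave 11 higher and 11 lower, control replicate 2 gave 9 and 15, control replicate 3 gave 8 and 11, and inhibitor replicates 1 and 3 gave 12 and 11 and 15 and 12. Without inhibitor replicate 2, 32 of the 36 calls were kept and 5 members were added. Over the fits that left out 1 array, 11 to 25 members were lower.

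MRPL44, a large subunit protein with a ribonuclease III-like fold, read 9.83, 9.73 and 9.79 in the control and 8.99 to 9.09 in the inhibitor group. The groups stood far apart relative to their spread, and the gene fell by 0.76 on the log2 scale (SE 0.06, 1.69-fold lower, adjusted p 9.05e-05). MRPL42 read 9.44, 9.37 and 9.39 in the control and 8.76, 8.95 and 8.68 with the inhibitor, and all 3 of its probe sets were called lower. MRPL39 and MRPL1 fell by 0.50 (SE 0.07) and 0.49 (SE 0.06), each in both of its probe sets. MRPL1 is the relative of the bacterial protein of the mobile stalk where spent tRNA leaves. MRPL19 fell by 0.53 (SE 0.07), but its second probe set was called higher, by 0.32, and the mean of probe sets gave -0.11, not called.

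Both MRPS symbols whose products sit in the large subunit were among the genes that fell. MRPS18A read 9.79, 9.73 and 9.76 in the control and 9.23, 9.32 and 9.19 with the inhibitor, a fall of 0.51 (SE 0.06, adjusted p 0.000462). Its other probe set was at 0.23 and not called, and the mean of both gave -0.14 with an adjusted p of 0.211. MRPS30 read 11.02 (SD 0.03, n = 3) in the control and 10.53, 10.55 and 10.47 with the inhibitor, a fall of 0.50 (SE 0.06). It has 1 probe set, and the groups did not overlap. The true small subunit genes MRPS22, MRPS9 and MRPS35 fell by 0.37 (SE 0.06), 0.33 (SE 0.08) and 0.21 (SE 0.06), and averaging probe sets put MRPS35 at -0.40.

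MRPL20-AS1 read 7.13, 7.02 and 7.17 in the control and 7.79, 7.94 and 7.85 with the inhibitor, a rise of 0.75 (SE 0.07, 1.69-fold, adjusted p 0.000165). Its span in RefSeq overlaps that of MRPL20, which rose by 0.21 (SE 0.07), and its other probe set was at -0.05, so that the mean of both gave 0.35. Of coding genes, MRPL28 read 9.71, 9.78 and 9.66 in the control and 10.31, 10.11 and 10.33 with the inhibitor. It rose by 0.53 (SE 0.08), and all 3 of its probe sets were called higher. MRPL41 rose by 0.52 (SE 0.10), MRPL27 by 0.47 (SE 0.07) and MRPL43 by 0.45 (SE 0.09). MRPL43 has 6 probe sets, the second brightest was at 0.00, and their mean gave 0.24. MRPL27 is the relative of a bacterial protein that reaches to the peptidyl transferase centre. MRPS12, the relative of the bacterial protein at the decoding site, read 8.95, 8.86 and 8.89 in the control and 9.24, 9.42 and 9.26 with the inhibitor, and its 3 probe sets above the filter were all called higher. MRPS26 rose by 0.39 (SE 0.10), MRPS28 by 0.24 (SE 0.07), MRPS2 by 0.21 (SE 0.06) and MRPS21 by 0.20 (SE 0.06); averaged over probe sets MRPS21 was at 0.16 and not called.

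**Figure D4:**
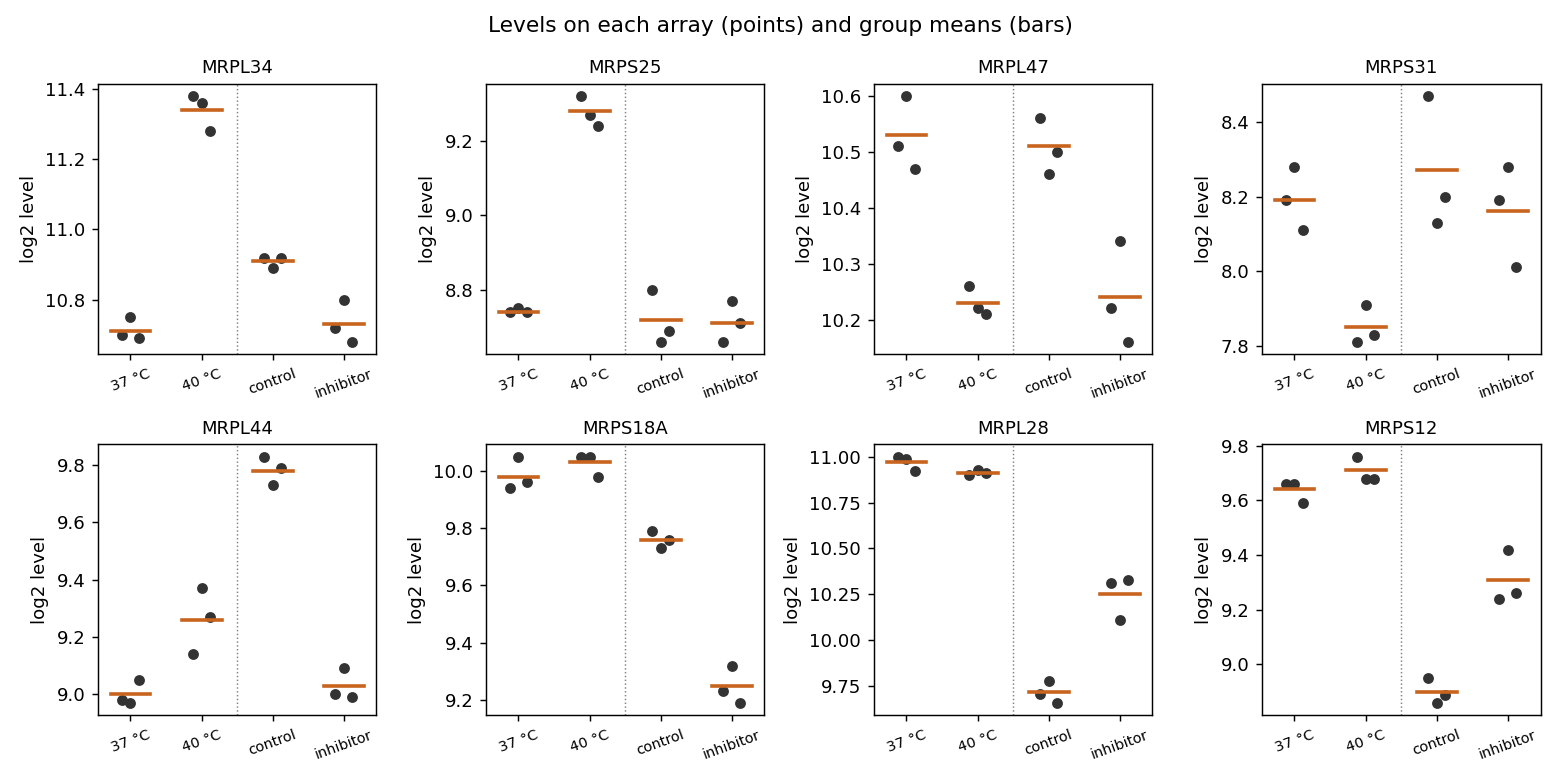
Log2 level (y axis) of 8 genes on each array (points) with the group mean (bar), by group along the x axis; each panel has its own y scale. The upper row holds genes named for 40 °C and the lower row genes named for the inhibitor.

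By subunit symbol, 10 MRPL genes rose and 16 fell with the inhibitor, with a median of -0.06, and 5 MRPS genes rose and 5 fell, with a median of -0.02. With MRPS18A and MRPS30 counted where their products sit, 18 of 50 large subunit genes and 3 of 25 small subunit genes fell, with medians of -0.08 and 0.00. The MRPS median turned to 0.02 with quantile normalization. The arrays do not set the subunits apart: the mean over MRPL genes was 9.70 to 9.77 in the control and 9.65 to 9.76 in the inhibitor group, that over MRPS genes 9.56 to 9.66 and 9.52 to 9.66, and the difference of the means 0.10 to 0.14 and 0.10 to 0.13. All of these ranges overlap. The ETS letters were in 9 of 14 members that rose (64.3%), 8 of 19 that fell (42.1%) and 13 of 35 not called (37.1%), and the medians with and without them were both -0.05. The window of MRPL28 holds the letters on the opposite strand, starting 7 bases after the start, where they read CTTCCGG, and that of MRPL44 holds none of the motifs.
MRPL28, chr16:370489-370788, minus strand: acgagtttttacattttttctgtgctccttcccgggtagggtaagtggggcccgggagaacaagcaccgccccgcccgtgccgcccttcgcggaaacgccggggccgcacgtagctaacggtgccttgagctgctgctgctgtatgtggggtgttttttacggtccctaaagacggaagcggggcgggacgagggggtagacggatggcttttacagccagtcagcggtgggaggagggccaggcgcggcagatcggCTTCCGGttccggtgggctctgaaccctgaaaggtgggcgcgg
MRPL44, chr2:223957213-223957512, plus strand: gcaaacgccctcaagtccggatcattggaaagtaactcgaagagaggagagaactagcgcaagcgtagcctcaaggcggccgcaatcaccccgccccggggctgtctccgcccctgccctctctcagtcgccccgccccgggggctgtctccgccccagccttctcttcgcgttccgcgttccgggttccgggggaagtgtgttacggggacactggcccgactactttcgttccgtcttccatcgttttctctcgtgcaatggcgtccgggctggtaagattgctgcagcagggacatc
Both windows run 5′ to 3′ of the gene, and they are shown as the first coding member in each direction.

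The comparisons share no arrays, so a gene can be followed through both. Of the 75 members, 16 were called in both, 19 at 40 °C alone, 20 with the inhibitor alone and 20 in neither. In 5 genes both differences were rises: MRPS26, MRPL24, MRPL18, MRPS2 and MRPL57. In 4 genes both were falls: MRPL47, MRPS22, MRPL3 and MRPL39. MRPL1, MRPL33, MRPL34, MRPL37, MRPL42 and MRPL44 rose at 40 °C and fell with the inhibitor, and MRPL20 did the reverse. All of these are MRPL genes, as were 13 of the 16 members called in both. With each array centred on its median, MRPL20, MRPL3, MRPL33, MRPL34, MRPL37, MRPL57 and MRPS2 lost their call with the inhibitor and MRPL39 its call at 40 °C. Of the 3163 genes of the whole array called in both, 1076 rose in both, 837 fell in both, and 688 rose at 40 °C and fell with the inhibitor.

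The inhibitor difference minus the temperature difference was tested in 1 fit over all arrays. It was below 0 and called in 24 members (32%) and above 0 and called in 11 (14.7%). Of all genes, 44.2% were called, 21.1% lower and 23.1% higher. Genes in the members' level range gave 29.5% lower and 30.1% higher, so the members' share below 0 was near that of the range. With the spike covariate 7 members were below 0 and called and 0 above 0 (5 above 0 at an unadjusted p under 0.05 in limma), against 7.71% lower and 6.27% higher of all genes. MRPL44 was at -1.02 (SE 0.09, adjusted p 2.61e-06), the 1 member past 2-fold. MRPL42, MRPL34 and MRPL1 were at -0.91, -0.80 and -0.70, and MRPL20-AS1 and MRPL28 at 0.75 and 0.59. For MRPS26, whose differences were 0.41 and 0.39, it was -0.02 (SE 0.12). The experiments also differ in nucleofection and sorting, and handling and treatment cannot be told apart in this contrast.

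**Figure D5:**
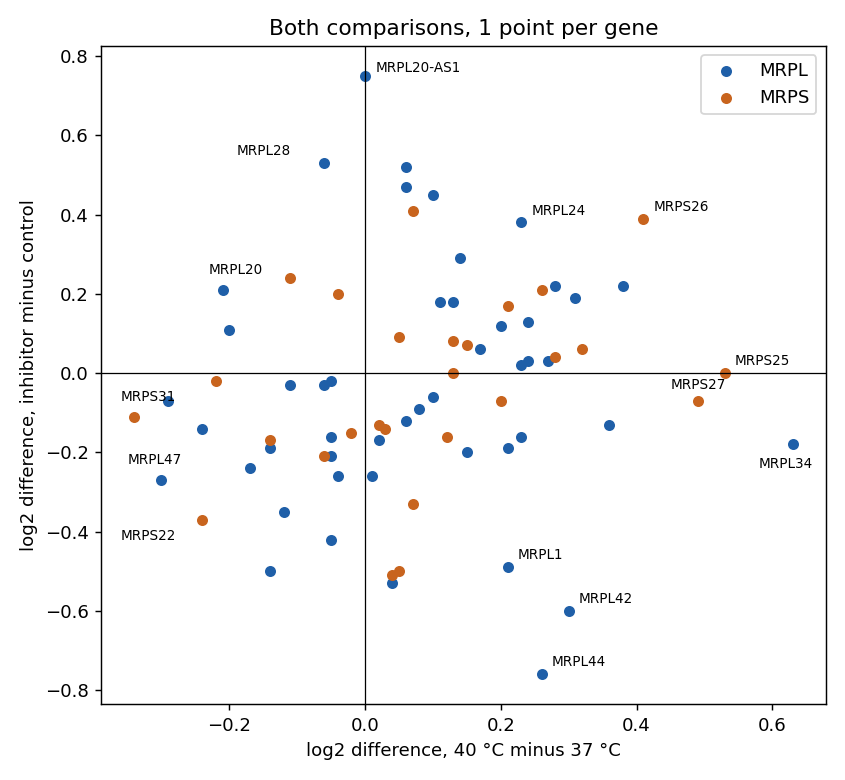
Log2 difference with the inhibitor (y axis) against that at 40 °C (x axis), 1 point for each of the 75 genes, MRPL in blue and MRPS in orange. MRPL44, MRPL42 and MRPL1 lie at the lower right, higher at 40 °C and lower with the inhibitor; MRPS26 and MRPL24 lie at the upper right.

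The stalk that calls in translation factors is built by MRPL10, MRPL11 and MRPL12. At 40 °C MRPL10 rose by 0.24 (SE 0.07) and MRPL12 by 0.17 (SE 0.05), and MRPL11 was at 0.14 with an adjusted p of 0.0506. With the inhibitor MRPL11 rose by 0.29 (SE 0.07), while MRPL10 and MRPL12 were at 0.13 and 0.06 and were not called. The other probe set of MRPL12 was called higher with the inhibitor, at 0.20, and was at 0.05 at 40 °C. All 3 genes were thus above 0 in both comparisons, and the differences between them were not tested. The 3 MRPS18 paralogs, related to 1 bacterial protein, had these calls: MRPS18A fell with the inhibitor alone, MRPS18C fell at 40 °C alone, and MRPS18B was at -0.02 and -0.15 and called in neither. The difference between paralogs was not tested.

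Probe sets of 1 gene were called in opposite directions in several members. At 40 °C these were MRPL42, MRPS10, MRPS16, MRPS17 and MRPS25, and with the inhibitor MRPL19, MRPL30, MRPL35 and MRPL52. MRPS16 had probe sets called higher at 40 °C at 0.21, the brightest, and at 0.27, and 1 called lower at -0.69. Of the 35 members called at 40 °C, 21 have other probe sets; in 14 another was called the same way and in 3 the opposite way. Those 3, MRPL42, MRPS16 and MRPS25, are also among the 14, as they have other probe sets called each way. Of the 36 called with the inhibitor, 23 have other probe sets. In 14 another was called the same way and in 3, MRPL19, MRPL35 and MRPL52, the opposite way alone.

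Cytosolic ribosomal proteins, which build the other ribosome of the cell, are the nearest group by function. Of 71 tested, 1 rose (1.41%) and 4 fell (5.63%) at 40 °C and 11 rose (15.5%) and 2 fell (2.82%) with the inhibitor, with medians of -0.04 and 0.03. Their mean log2 level was 12.60 to 12.73 per array, against 9.60 to 9.84 for the members. That lies above the range of the members' gene means, 7.27 to 12.11. The part of this level difference in the shares of calls was not tested. RPL13 rose by 0.43 (SE 0.05) and RPL22L1 fell by 0.50 (SE 0.05) at 40 °C, and RPS3 rose by 0.47 (SE 0.05) with the inhibitor. The 4 proteins of the mitochondrial ribosome tested that lack an MRP symbol gave 1 rise at 40 °C, CHCHD1 by 0.20 (SE 0.05). With the inhibitor GADD45GIP1 rose by 0.44 (SE 0.08) and PTCD3 fell by 0.25 (SE 0.07).

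Over all genes tested, 21.6% rose and 17.7% fell at 40 °C, and 25.6% rose and 19.6% fell with the inhibitor. Genes in the members' level range gave 29.2% and 24.3%, and 32.8% and 26.9%. These shares stand beside this list and each list below, and no list was tested against them. Among 26 assembly factors of the mitochondrial ribosome, 7 rose (26.9%) and 3 fell (11.5%) at 40 °C. With the inhibitor 13 rose (50%) and 1 fell (3.85%). NGRN, needed for the large subunit's rRNA, rose by 0.81 (SE 0.05) at 40 °C, and the GTPase MTG2 fell by 0.39 (SE 0.05) there and rose by 0.59 (SE 0.06) with the inhibitor. DDX28, RBFA and MRM3 rose by 0.69, 0.59 and 0.59 with the inhibitor. The next list held 16 translation factors and related genes, LRPPRC, SLIRP and OXA1L among them. Of these, 4 rose (25%) and 3 fell (18.8%) at 40 °C and 1 rose (6.25%) and 4 fell (25%) with the inhibitor. TUFM, the elongation factor that brings charged tRNA, rose by 0.30 (SE 0.04) and 0.31 (SE 0.05), and the initiation factor MTIF2 fell by 0.33 (SE 0.04) at 40 °C. Of 19 genes for the charging of mitochondrial tRNA, 8 rose (42.1%) and 2 fell (10.5%) at 40 °C. With the inhibitor 8 rose (42.1%), and the other 11 were not called. The list holds aminoacyl-tRNA synthetases and the amidotransferase subunits GATB, GATC and QRSL1, which were called in neither comparison. CARS2 and AARS2 rose by 0.73 (SE 0.06) and 0.70 (SE 0.05) at 40 °C and by 0.49 (SE 0.06) and 0.41 (SE 0.07) with the inhibitor.

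Of 15 genes of mitochondrial DNA upkeep and transcription, 5 rose (33.3%) and 7 fell (46.7%) at 40 °C. With the inhibitor 6 rose (40%) and 2 fell (13.3%). The polymerases POLG and POLRMT rose by 0.52 (SE 0.05) and 0.44 (SE 0.06) at 40 °C, SSBP1 fell by 0.34 (SE 0.05), and ELAC2, which trims tRNA precursors, rose by 0.88 (SE 0.08) with the inhibitor. Of 8 regulators of mitochondrial genes tested, MYC rose and GABPA fell in both comparisons; PPRC1, ESRRA, PPARGC1B and NRF1 also rose with the inhibitor, by 0.68 (SE 0.09), 0.56 (SE 0.08), 0.57 (SE 0.12) and 0.53 (SE 0.09). Of 15 stress response genes, 7 rose (46.7%) and 2 fell (13.3%) at 40 °C, where the chaperonin HSPE1 rose by 0.76 (SE 0.05). With the inhibitor 6 rose (40%) and 5 fell (33.3%), and ATF4 fell by 0.70 (SE 0.05).

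Of 20 import genes, 2 rose (10%) and 7 fell (35%) at 40 °C and 5 rose (25%) and 2 fell (10%) with the inhibitor. TOMM20, a receptor for proteins entering mitochondria, fell by 0.57 (SE 0.04) at 40 °C. Of 31 oxidative phosphorylation subunits, 2 rose (6.45%) and 5 fell (16.1%) at 40 °C. With the inhibitor 3 rose (9.68%) and 11 fell (35.5%), and the medians were -0.02 at 40 °C and -0.06 with the inhibitor. UQCRC2 fell by 0.43 (SE 0.04) at 40 °C, and COX5B and NDUFS3 fell by 0.70 (SE 0.07) and 0.56 (SE 0.06) with the inhibitor.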

How the data were processed

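The 12 arrays hold RNA of THP-1 cells, 3 arrays per group. The authors deposited log2 values of 49395 probe sets; their background correction, normalization and software were not given in the sources used here, and the unit was read from the values. Array medians were 5.72 to 5.87, and 3 arrays per group limit the precision. Gene names came from the platform annotation: 44994 probe sets had 1 symbol, 1832 several, and 2473 that are not controls none. Genes below the 30th percentile of probe sets (log2 4.48) were left out, which left 13909. Each comparison was fitted on its own 6 arrays with limma 3.58.1 in R 4.3.3 (lmFit, eBayes, two-sided, no block), adjusted by Benjamini-Hochberg over these genes; SE is the moderated standard error. The contrast between experiments used all 12 arrays. The fits were tested on simulated data. Alternatives were another filter, scaling, probe set rule, eBayes setting, array weights, a spike covariate, the replicate number as a block and leaving out each array. Members and lists were chosen with earlier results of these data known. Named were the 5 largest called rises and falls per subunit and comparison among genes with no overlap between groups, up to 6 members called in the same and 6 in opposite directions, stalk proteins, MRPS18 paralogs, members with discordant probe sets and up to 4 called genes of each list by p; MRPL33, MRPL39, MRPL57, MRPL3 and PPARGC1B were added after their values were seen. Replicate numbers did not pair the arrays. Promoter windows were from RefSeq; protein sequences were not used here.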

Additional observations from a re-analysis of the deposited data

How the results depend on the processing

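Counts of called members are given as higher and lower, from limma. Counting every probe set gave 46 and 18 at 40 °C (6302 and 5582 over all probe sets), 35 and 31 with the inhibitor (6756 and 6965 over all) and 25 and 42 for the contrast between experiments (6525 and 7364 over all). The spike covariate gave 9 and 7 at 40 °C (1220 and 1453 over all genes), with an MRPL median of 0.02; 0 and 0 with the inhibitor (65 and 208 over all genes), with an MRPS median of -0.10; and 0 and 7 for the contrast (872 and 1073). At an unadjusted p under 0.05 the spike covariate left 7 members with the inhibitor and, for the contrast, 5 above 0. Array weights gave 5527 of all genes higher with the inhibitor. The replicate block gave 23 and 9 at 40 °C, 8 and 10 with the inhibitor and 9 and 18 for the contrast; same-numbered arrays correlated at -0.133, -0.102 and 0.227 in their deviations at 40 °C against 37 °C and at -0.187, -0.604 and -0.154 in the other experiment, so the pairing is by number alone. Leaving out 1 array gave 20 to 28 higher and 8 to 9 lower at 40 °C, 8 to 15 and 11 to 25 with the inhibitor, and 11 to 12 and 19 to 31 for the contrast; MRPL medians of 0.06 to 0.09 and -0.09 to -0.05, and MRPS medians of 0.05 to 0.08 and -0.09 to 0.03. The mean of probe sets turned MRPS16 at 40 °C (-0.07), MRPL35 with the inhibitor (0.01) and, for the contrast, MRPL15 (-0.02) and MRPS25 (0.09). Of the 35 members called at 40 °C, 34 remained called with centring, 33 with no filter and 27 with the mean of probe sets; of the 36 called with the inhibitor, 27, 30 and 30. The causes were not tested. Recounted after seeing the data, the ETS letters were in 4 of 4 members lower and 2 of 9 higher at 40 °C with the spike covariate. The values hold no background signal, so signal over background was not computed.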

Other observations

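Members of types shared with bacterial ribosomes were taken as L numbers to 36 and S numbers to 21 (43 genes). They gave 16 rises (37.2%) and 5 falls (11.6%) at 40 °C, with a median log2 difference of 0.12. The 31 coding members with higher numbers, most of them added in the mitochondrial lineage, gave 9 rises (29%) and 5 falls (16.1%), with a median of 0.05. With the inhibitor the first group gave 9 rises (20.9%) and 10 falls (23.3%), with a median of 0.00. The second gave 5 (16.1%) and 11 (35.5%), with a median of -0.09. All genes tested gave 21.6% and 17.7% at 40 °C and 25.6% and 19.6% with the inhibitor. Genes in the members' level range gave 29.2% and 24.3%, and 32.8% and 26.9%. In the second group MRPL44, MRPL42 and MRPL39 fell by 0.76, 0.60 and 0.50, and MRPL41 and MRPL43 rose by 0.52 and 0.45. This grouping was chosen after values were seen, and the difference between the groups was not tested.

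Replicates of the members lay close together. The median SD over the 75 genes was 0.05 at 37 °C, at 40 °C and in the control, and 0.08 in the inhibitor group; over all genes tested it was 0.06, 0.07, 0.08 and 0.10. Called members changed little in size, by a median of 0.24 at 40 °C and 0.34 with the inhibitor on the log2 scale, against 0.31 and 0.42 over all called genes, and no member passed 2-fold in either comparison. Of all genes tested, 141 and 471 did.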
